A study of Mus musculus with 14 samples.

Results

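The 42 genes described here encode proteins of ribosome biogenesis and of the nucleolus. They were taken from a fixed list of gene symbols. Each symbol matched exactly 1 of the 18207 gene labels that were above 0 in any library. The cells were haematopoietic stem cells (HSCs), which renew themselves and form all blood lineages, taken from the bone marrow of C57BL/6 mice. The labels give no age, genotype or treatment. The cells were sorted by calcium content into a calcium-high and a calcium-low population, and the labels name no other gate. Each population had 7 libraries of total RNA, numbered 1 to 7, and each library was made from 100 cells. The labels do not say whether libraries came from separate animals, so p-values measure only the spread between these samples, which may be technical. Values are RPKM, a read number divided by the length of the gene model and by the size of the library, as deposited by the authors.

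Ribosomes are assembled in the nucleolus. RNA polymerase I transcribes the ribosomal RNA (rRNA) genes into a long precursor, small nucleolar ribonucleoproteins (snoRNPs) modify it, and assembly factors fold and cut it into the small and the large ribosomal subunit. Quiescent HSCs are known for a low rate of protein synthesis, and nucleolar activity is commonly raised when cells prepare to divide. The calcium-high against calcium-low comparison asks here whether transcripts of this machinery differed between HSCs of high and low calcium.

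The libraries fell into groups that the calcium level does not describe. Replicates 1 to 3 held 3478209 to 7218394 reads in the tested labels, and replicates 4 to 7 held 8100902 to 10053223. HSC markers were detected in these libraries, with the stem cell factor receptor Kit at 59.3 to 76.1 RPKM and the transcription factor Hlf at 24.4 to 56.4 RPKM. Of 9 HSC markers, 8 were on the calcium-high side, with a median log2 fold change of 0.47, and 6 had an unadjusted p under 0.05 by limma with the block. Procr, Slamf1 and Fgd5 passed the test as higher in calcium-high cells (limma with the block; 0 passed without it). Calcium-low replicate 3 stood apart in other cell types' markers. The summed level of 9 detected neutrophil genes was 766 RPKM there and 0.386 to 27.8 RPKM in the other libraries, with S100a8 at 392 RPKM against 0 to 6.30 RPKM. That of 12 cycling-cell genes was 333 RPKM there and 6.54 to 33.1 RPKM elsewhere, with Top2a at 69.2 RPKM against 2.24 to 11.8 RPKM. Of the 10 tested cycling genes, 10 had a log2 fold change under 0 and 0 passed the test (limma, median -0.60). Over 10 erythroid genes the sum was 152 RPKM in calcium-low replicate 3, 81.5 RPKM in calcium-high replicate 3 and 9.33 to 61.7 RPKM in the others, and Car1 reached 120 RPKM in calcium-low replicate 3. The summed T and NK cell level was 4.61 to 18.7 RPKM over the calcium-high libraries and 11.7 to 33.0 RPKM over the others, with Nkg7 at up to 33.0 RPKM and Cd3e, Cd3g and Gzma listed at 0 throughout. The B cell sum was 2.91 to 6.09 and 3.59 to 6.27 RPKM, with Cd79b at up to 6.22 RPKM and Ms4a1 listed at 0. Over the macrophage and monocyte genes the sum was 0.128 to 35.4 and 0.0596 to 4.06 RPKM, with Ly6c2 at up to 30.1 RPKM. The part of these markers in the results was not tested. In bulk samples such as these, fewer cells of a type and less RNA per cell cannot be told apart.

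None of the 42 genes passed the test between calcium-high and calcium-low HSCs. Fitted on log2(RPKM + 1) with a block for the replicate number, which sets each library against its numbered partner, limma called 0 of the 42 genes higher and 0 lower at an adjusted p under 0.05. The same fit called 0.484% of all 9921 tested labels higher and 0.433% lower. Without the block, limma called 0 of the 42 and 0% of all labels. At an unadjusted p under 0.05 there were 4 of the 42 (9.52%) with the block, against 13.9% of all labels, and 2 (4.76%) without it, against 6.74%. The smallest adjusted p among the 42 was 0.148 with the block and 0.693 without it, both for Brix1. The calcium-high and calcium-low libraries overlapped in all 42 genes, and 0.141% of all tested labels had groups that did not overlap. Both shares of small p-values were below those of all labels.

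On the log2(RPKM + 1) scale, the differences that the data allow are small. Log2 fold changes, calcium-high minus calcium-low, ran from -0.38 for Brix1 to 0.16 for Polr1b, with standard errors of 0.0759 to 0.174. The 95% intervals of all 42 genes lay within a log2 fold change of -1 to 1, and those of 38 within -0.5 to 0.5. The lowest bound was -0.62 and the highest 0.38. Without the block the bounds were -0.71 and 0.42, with all 42 intervals again within -1 to 1 and 31 within -0.5 to 0.5. A change of 2-fold on the log2(RPKM + 1) scale therefore lay outside the interval of every one of the 42 genes in both fits. This scale understates the change of genes at low RPKM. For Brix1 the log2 fold change was -0.52 with a pseudocount of 0.1, against -0.38 in the main fit. For such genes the intervals therefore do not exclude a change of 2-fold in RPKM itself.

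More of these genes lay on the calcium-low side than in the table as a whole. The log2 fold change was under 0 for 34 of the 42 genes (81%), against 57.8% of all tested labels. The median was -0.098, against -0.029 over all tested labels, a difference of -0.069. Genes of 1 pathway vary together across libraries, and no test was made of this share. With median-of-ratios scaling, which evens out whole-library shifts, 34 of 42 were again on the calcium-low side (57.1% of all labels). The median was -0.097, against -0.026. With upper-quartile scaling, 29 of 42 were (46.1% of all labels), with a median of -0.050 against 0.015 over all labels. Among labels with a mean of 5 RPKM or more, 26 of the 33 genes tested (78.8%) were, against 65.7% of all such labels, and the medians were closer, at -0.074 and -0.058, a difference of -0.016. Without replicate 3 the count was 28 of 42 (47.8% of all labels), with a median of -0.079 against 0.0079. Without replicate 1 it was 24 of 42 (46.7% of all labels), with a median of -0.023 against 0.011.

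**Figure D1:**
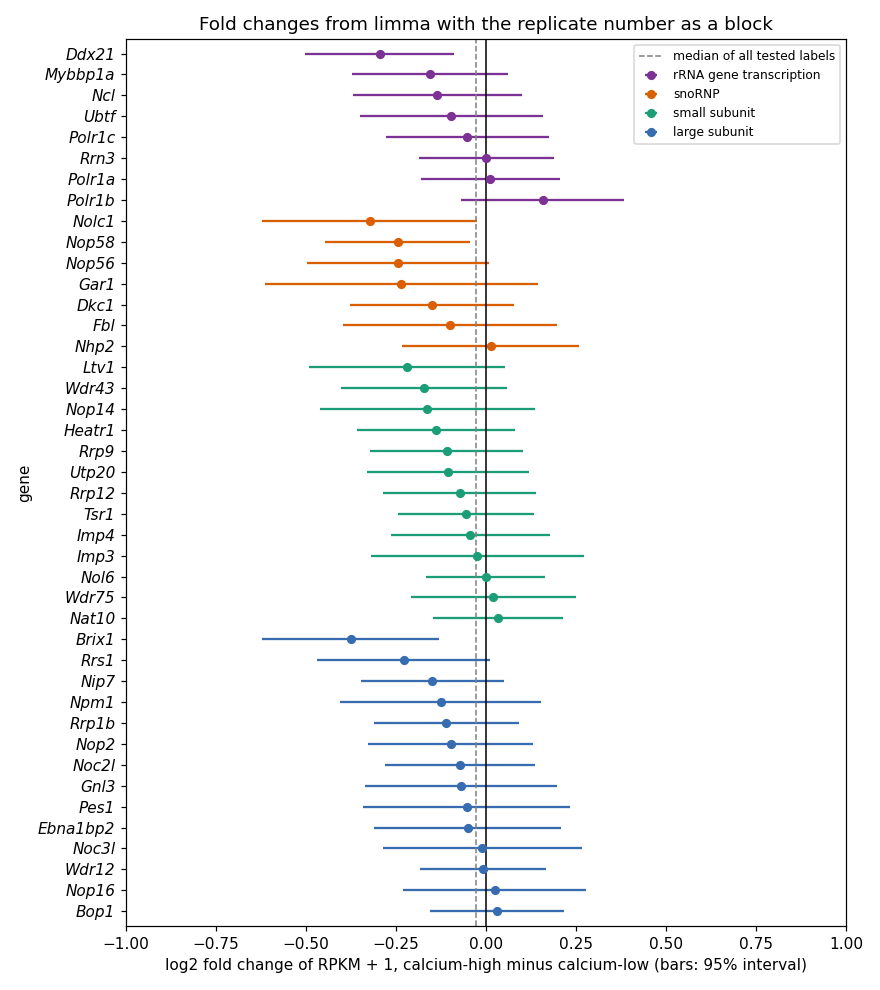
Log2 fold change of RPKM + 1, calcium-high minus calcium-low, for each of the 42 genes (vertical axis) with its 95% interval from limma with the replicate number as a block, coloured by role; the dashed line is the median of all tested labels (-0.029). Most points (34 of 42, against 57.8% of all tested labels) lie left of 0, though only 10 of 42 did in replicates 4 to 7 alone, against 26.2% of all labels. All intervals stay within -1 to 1, and none of the genes passed the test after adjustment.

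Every one of the 42 genes was expressed in every library. The lowest value in any library was 1.26 RPKM, for Brix1, and the genes held 54 to 5178 reads each per library with a median of 584. Mean levels over the 14 libraries ran from 2.28 RPKM for Brix1 to 36.6 RPKM for Fbl. The median gene stood at 7.497 RPKM, against 4.11 RPKM for all tested labels, and 36 of the 42 were above that table median. A mean of 5 RPKM or more was reached by 33 genes. Only 4 exceeded 30 RPKM, namely Fbl at 36.6, Noc2l at 35.7, Npm1 at 33.5 and Mybbp1a at 30.6 RPKM. RPKM is per length of gene model, so gene length is allowed for. The gene models and the use of strand are not given in the sources used here, so comparisons between genes are approximate.

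**Figure D2:**
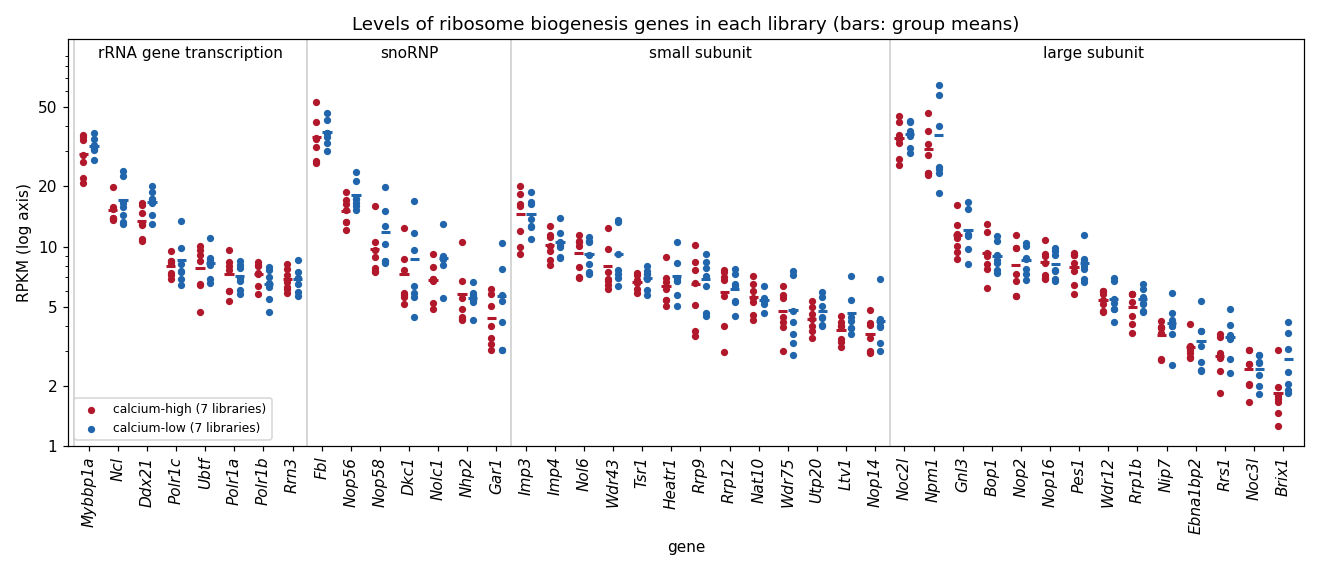
RPKM (log axis) of the 42 genes in each of the 7 calcium-high (red) and 7 calcium-low (blue) libraries, grouped by role and ordered by mean level, with bars at the group means. The red and blue points overlap for every gene, and the levels span from 1.26 RPKM for Brix1 to 64.4 RPKM for Npm1.

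Transcription of the rRNA genes was represented by 8 genes with mean levels of 6.85 to 30.6 RPKM. Of these, 5 lay on the calcium-low side, against 57.8% of all labels, and 0 passed the test. The smallest adjusted p was 0.181 by limma with the block and 0.700 without it. Ddx21 encodes an RNA helicase that acts at the rRNA genes and on their transcripts (GRCm38, chromosome 10, 62580251 to 62602281, minus strand). It ran from 10.7 to 16.4 RPKM in calcium-high libraries, with a median of 12.9, and from 13.03 to 20.04 RPKM in calcium-low libraries, with a median of 17.2. The calcium-low library was the higher one in all 7 numbered pairs, although the 2 groups overlapped. Means were 13.5 ± 2.33 and 16.7 ± 2.41 RPKM (SD, n = 7), a log2 fold change of -0.30 (SE 0.0950, 95% interval -0.50 to -0.088).

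Ddx21 passed the test in some alternative fits and not in the main ones. Its adjusted p was 0.181 by limma with the block and 0.700 without it. On whole reads recovered from the RPKM values, limma-voom with library weights called Ddx21 lower in calcium-high cells, at an adjusted p of 0.0410 with the block and 0.0226 without it. This was 1 of the 42 genes in each fit, against 2.79% of all labels called lower with the block and 2.51% without it. With median-of-ratios scaling the limma adjusted p was 0.0615 over all libraries with the block and 0.0352 in replicates 4 to 7 alone, where 1 of the 42 was called, against 3.68% of all labels. With that scaling, limma gave Ddx21 an adjusted p of 0.531 without the block and 0.581 in replicates 1 to 3 alone, and with the deposited scaling 0.166 in replicates 4 to 7 alone. The exact two-sided sign-flip test over the 7 pairs gave p = 0.0156, the smallest that 7 pairs allow, and 0.283 after adjustment over all labels. Lower levels in calcium-high cells in 7 of 7 pairs were found in 2 of the 42 genes (4.76%), Ddx21 and Brix1, against 3.02% of all labels. Higher levels in 7 of 7 pairs were found in 0 of the 42, against 2.49%.

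The upstream sequences of Ddx21 and Brix1 each hold a pair of copies of the ETS core, the letters CGGAAG or, on the other strand, CTTCCG. They are shown because these 2 genes had the most regular difference between pairs. The motif is not particular to them. From 250 bases before to 50 after the start site it was found in 63.9% of 36 of these genes, against 39.2% of tested labels. More than 1 copy was also found there in Ebna1bp2, Gar1, Imp3, Ltv1, Nip7, Nop2, Rrn3 and Tsr1. Those genes were lower in calcium-high in 3 to 5 of 7 pairs. Ddx21 and Brix1 were picked by their own pair counts, and a link between motif copies and calcium level was not tested. Each stretch is the 100 bases before the RefSeq start site on GRCm38.p6, printed 5′ to 3′ along the gene, with motifs in capitals.
Ddx21 (chr10:62602299-62602398, minus strand): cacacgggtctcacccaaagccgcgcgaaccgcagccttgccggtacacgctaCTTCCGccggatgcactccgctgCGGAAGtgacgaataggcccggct
Brix1 (chr15:10485938-10486037, minus strand): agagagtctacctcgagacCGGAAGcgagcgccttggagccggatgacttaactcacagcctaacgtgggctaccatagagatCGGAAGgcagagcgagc
A match of letters is a description of the sequence and does not show that a factor binds there.

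Subunits of the polymerase itself had log2 fold changes of -0.05 to 0.16. Polr1b, the second largest subunit of RNA polymerase I, had the highest fold change of the 42 genes. It ran from 5.79 to 8.34 RPKM in calcium-high libraries, with a median of 7.38, and from 4.69 to 7.88 RPKM in calcium-low libraries, with a median of 6.53. Calcium-high was the higher library in 4 of 7 pairs and the lower in 3. Its fold change was 0.16 on the log2 scale (SE 0.104), with a limma adjusted p of 0.555 with the block. Polr1a, the largest subunit, stood at 7.26 ± 1.57 and 7.13 ± 1.03 RPKM in calcium-high and calcium-low libraries (SD, n = 7). Polr1c, a subunit shared with RNA polymerase III, stood at 8.02 ± 0.921 and 8.54 ± 2.45 RPKM. For both subunits the difference between the group means was smaller than either SD, which includes the spread between replicate numbers. Limma with the block, which removes that spread, gave adjusted p of 0.974 for Polr1a and 0.877 for Polr1c. Rrn3, the factor that brings the polymerase to the rRNA promoter, was at 6.85 ± 0.888 and 6.86 ± 0.984 RPKM, and its 95% interval was -0.19 to 0.19. Ubtf, the factor that keeps rRNA genes open, was at 7.83 ± 1.98 and 8.31 ± 1.44 RPKM.

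The remaining genes of this class are abundant nucleolar proteins. Mybbp1a, a nucleolar protein that binds Myb and associates with the polymerase, ran from 20.7 to 36.3 RPKM in calcium-high libraries, with a median of 28.7, and from 27.0 to 37.0 RPKM in calcium-low libraries, with a median of 31.3. Its log2 fold change was -0.16 (SE 0.0993; limma adjusted p = 0.535 with the block). Ncl encodes nucleolin, a major protein of the nucleolus. It ran from 13.6 to 19.996 RPKM, with a median of 13.97, and from 12.95 to 24.01 RPKM, with a median of 15.9. The highest Ncl value of each group was in replicates 1 to 3, and the log2 fold change was -0.14 (SE 0.108; limma adjusted p = 0.634 with the block).

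The snoRNP class had the lowest median fold change of the 4 classes, and 0 of its 7 genes passed the test. This is a description and the classes were not tested against each other. The median was -0.24, with 6 of 7 genes on the calcium-low side, against 57.8% of all labels. Fold changes ranged from -0.32 to 0.01, and the smallest adjusted p was 0.250 by limma with the block and 0.737 without it. That median is the value of Gar1, for which calcium-high was the lower library in 3 of 7 pairs and the higher in 4. In replicates 4 to 7 alone the log2 fold changes were -0.18 for Nolc1, -0.15 for Nop58 and -0.039 for Nop56. Those of Dkc1, Gar1, Fbl and Nhp2 were 0.013, 0.027, 0.15 and 0.21. Box C/D snoRNPs methylate rRNA, and their core proteins are Fbl, Nop56 and Nop58. Nop58 (GRCm38, chromosome 1, 59684971 to 59719044) ran from 7.45 to 15.9 RPKM in calcium-high libraries, with a median of 8.85, and from 8.26 to 19.8 RPKM in calcium-low libraries, with a median of 10.2. Calcium-high was the lower library in 6 of 7 pairs, and in both groups replicate 3 was the highest library. The log2 fold change was -0.25 (SE 0.0926), with a limma adjusted p of 0.250 with the block and 0.951 without it.

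Nop56, the partner of Nop58 in the same particle, ran from 12.1 to 18.8 RPKM in calcium-high libraries, with a median of 15.2, and from 15.3 to 23.6 RPKM in calcium-low libraries, with a median of 17.3. The log2 fold change was -0.25 (SE 0.116; limma adjusted p = 0.375 with the block), with calcium-high lower in 5 of 7 pairs. Of the exon length of Nop56, 8.12% is shared with Idh3b on the opposite strand, and use of strand in counting is not given in the sources used here. Fbl, the methyltransferase fibrillarin and the most abundant of the 42 transcripts, ran from 26.1 to 53.1 RPKM in calcium-high libraries, with a median of 34.7, and from 30.2 to 46.7 RPKM in calcium-low libraries, with a median of 37.0. The lowest and the highest Fbl values were both calcium-high libraries. Its log2 fold change was -0.10 (SE 0.137; limma adjusted p = 0.809 with the block).

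Nolc1, a chaperone of snoRNPs that shuttles between nucleolus and cytoplasm, was the snoRNP gene with the lowest fold change (GRCm38, chromosome 19, 46075863 to 46085530). It ran from 4.85 to 9.19 RPKM in calcium-high libraries, with a median of 6.835, and from 5.502 to 12.98 RPKM in calcium-low libraries, with a median of 8.69. Its highest value came from calcium-low replicate 1, whose partner calcium-high replicate 1 had the lowest. This gave a log2 fold change of -0.32 (SE 0.137), with a limma adjusted p of 0.312 with the block and 0.737 without it, and a log2 fold change of -0.17 without replicate 1. The H/ACA snoRNPs convert uridine to pseudouridine. Dkc1, their catalytic subunit dyskerin, was at 7.29 ± 2.59 and 8.62 ± 4.43 RPKM in calcium-high and calcium-low libraries (SD, n = 7). Gar1 was at 4.39 ± 1.26 and 5.62 ± 2.66 RPKM, with the largest standard error of all 42 genes (0.174). Nhp2 was at 5.81 ± 2.26 and 5.53 ± 0.714 RPKM. For Dkc1, Gar1 and Nhp2 the difference between the group means was smaller than either SD, which includes the spread between replicate numbers. Limma with the block, which removes that spread, gave adjusted p of 0.580 for Dkc1, 0.601 for Gar1 and 0.977 for Nhp2.

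Small subunit assembly was represented by 13 genes at 3.93 to 14.5 RPKM. On the calcium-low side lay 11 of the 13, against 57.8% of all labels, and 0 passed the test. Their fold changes were -0.22 to 0.03 on the log2 scale with a median of -0.074, and the smallest adjusted p was 0.475 by limma with the block and 0.831 without it. Ltv1, an assembly factor of the late small subunit, had the lowest of these p-values. It ran from 3.14 to 4.51 RPKM in calcium-high libraries, with a median of 3.98, and from 3.64 to 7.12 RPKM in calcium-low libraries, with a median of 4.25. Only calcium-low replicates 1 and 3 were above every calcium-high library. Its log2 fold change was -0.22 (SE 0.125).

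Wdr43 and Heatr1 belong to the early complex that joins the precursor while it is transcribed. Wdr43 ran from 6.12 to 12.4 RPKM in calcium-high libraries, with a median of 6.90, and from 6.35 to 13.6 RPKM in calcium-low libraries, with a median of 7.64. Calcium-high was lower in 6 of 7 pairs, and the log2 fold change was -0.17 (SE 0.106; limma adjusted p = 0.511 with the block). Heatr1 ran from 5.04 to 8.89 RPKM, with a median of 6.10, and from 5.05 to 10.5 RPKM, with a median of 6.74. In both groups the highest Heatr1 value was that of replicate 3, and the log2 fold change was -0.14 (SE 0.1003; limma adjusted p = 0.591 with the block).

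Imp3 and Imp4, which bind the snoRNA that guides the first cuts of the precursor, were the most abundant genes of the class. Imp3 ran from 9.22 to 20.1 RPKM in calcium-high libraries, with a median of 16, and from 10.9 to 18.8 RPKM in calcium-low libraries, with a median of 13.7. The calcium-high range contained the calcium-low range, and the log2 fold change was -0.025 (SE 0.136; limma adjusted p = 0.959 with the block). Imp4 ran from 8.10 to 12.6 RPKM, with a median of 10.1, and from 8.71 to 13.8 RPKM, with a median of 10.1, and had a log2 fold change of -0.044 (SE 0.101; limma adjusted p = 0.896 with the block). The sign of both was positive with upper-quartile scaling and with limma-voom. The other 8 genes of the class had fold changes of -0.16 for Nop14 to 0.03 for Nat10. They are Nop14, Utp20, Wdr75 and Nol6 of the early complexes, Rrp9 that binds the same snoRNA, Rrp12 and Tsr1 of later stages, and Nat10, which acetylates RNA. Of the exon length of Tsr1, 32.3% is shared with Srr on the opposite strand.

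Large subunit assembly was represented by 14 genes at 2.28 to 35.7 RPKM. On the calcium-low side lay 12 of the 14, against 57.8% of all labels, and 0 passed the test. Their median log2 fold change was -0.072, and the smallest adjusted p was 0.148 by limma with the block. Brix1, an assembly factor of the early large subunit and the least abundant of the 42 (GRCm38, chromosome 15, 10474779 to 10485947, minus strand, with its upstream sequence given beside that of Ddx21), had the lowest fold change. It ran from 1.26 to 3.01 RPKM in calcium-high libraries, with a median of 1.71, and from 1.84 to 4.19 RPKM in calcium-low libraries, with a median of 2.36. Calcium-low was the higher library in all 7 pairs, and calcium-high replicates 2 and 3 lay among the calcium-low values. Means were 1.84 ± 0.566 and 2.72 ± 0.937 RPKM (SD, n = 7), a log2 fold change of -0.38 (SE 0.113, 95% interval -0.62 to -0.13). The adjusted p was 0.148 by limma with the block, 0.0615 with median-of-ratios scaling and 0.0691 by limma-voom with library weights.

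Rrs1 and Nip7 followed Brix1 in order of p. Rrs1, which brings the small rRNA of the large subunit into the particle, ran from 1.85 to 3.63 RPKM in calcium-high libraries, with a median of 2.83, and from 2.33 to 4.88 RPKM in calcium-low libraries, with a median of 3.57. Its log2 fold change was -0.23 (SE 0.110; limma adjusted p = 0.391 with the block). Nip7 ran from 2.70 to 4.23 RPKM, with a median of 3.92, and from 2.54 to 5.87 RPKM, with a median of 4.02. Calcium-high was lower in 5 of 7 pairs for both genes, and the Nip7 log2 fold change was -0.15 (SE 0.0915; limma adjusted p = 0.512 with the block).

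Noc2l and Npm1 were the most abundant genes of the class. Noc2l, a nucleolar protein that also binds histones and p53, ran from 25.8 to 45.2 RPKM in calcium-high libraries, with a median of 34.6, and from 29.3 to 42.8 RPKM in calcium-low libraries, with a median of 36.6. Of its exon length, 20.9% is shared with Samd11 on the opposite strand. Its log2 fold change was -0.073 (SE 0.0954; limma adjusted p = 0.796 with the block). Npm1, nucleophosmin, a histone and ribosomal protein chaperone that moves between nucleolus and cytoplasm, ran from 22.9 to 46.6 RPKM, with a median of 28.8, and from 18.5 to 64.4 RPKM, with a median of 25.0. In both groups its highest values were those of replicates 1 to 3, and the log2 fold change was -0.13 (SE 0.128; limma adjusted p = 0.717 with the block).

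Bop1, Pes1 and Wdr12 encode the PeBoW complex, which is needed to form the large subunit. Bop1 was at 9.31 ± 2.37 and 8.97 ± 1.51 RPKM in calcium-high and calcium-low libraries (SD, n = 7), Pes1 at 7.91 ± 1.40 and 8.26 ± 1.58 RPKM, and Wdr12 at 5.38 ± 0.552 and 5.47 ± 1.01 RPKM. In all members of the complex the difference of the means was smaller than either SD, which includes the spread between replicate numbers. Limma with the block, which removes that spread, gave adjusted p of 0.920 for Bop1, 0.900 for Pes1 and 0.977 for Wdr12. Gnl3, the nucleolar GTPase nucleostemin, was at 11.4 ± 2.52 and 12.1 ± 3.04 RPKM. Nop2, an RNA methyltransferase, was at 8.05 ± 2.30 and 8.51 ± 1.36 RPKM. The other 4 assembly factors, Rrp1b, Ebna1bp2, Noc3l and Nop16, had log2 fold changes of -0.11 for Rrp1b to 0.02 for Nop16.

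The direction depended on the pair of libraries. Within a numbered pair, the median difference over the 42 genes in log2(RPKM + 1), calcium-high minus calcium-low, was -0.54 in pair 1, -0.14 in pair 2 and -0.22 in pair 3. All tested labels had medians of -0.25, -0.11 and -0.22 in the same pairs. In pairs 4 to 7 the genes' medians were -0.036, 0.11, 0.15 and -0.065, and those of all labels were 0.025, 0.12, 0.16 and 0.10, so that the medians had opposite signs in pairs 4 and 7. Of the 42 genes, 40, 36 and 37 were lower in calcium-high in pairs 1 to 3, and 24, 10, 7 and 26 in pairs 4 to 7. Of all labels, 76.6%, 70.0% and 77.2% were lower in pairs 1 to 3. In pairs 4 to 7 these shares were 45.5%, 31.5%, 26.7% and 35.4%. Relative to all labels, the genes stood lowest in pair 1, by -0.30, and in pair 7, by -0.17. In the other 5 pairs they stood between -0.061 and 0.0059 from all labels.

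**Figure D3:**
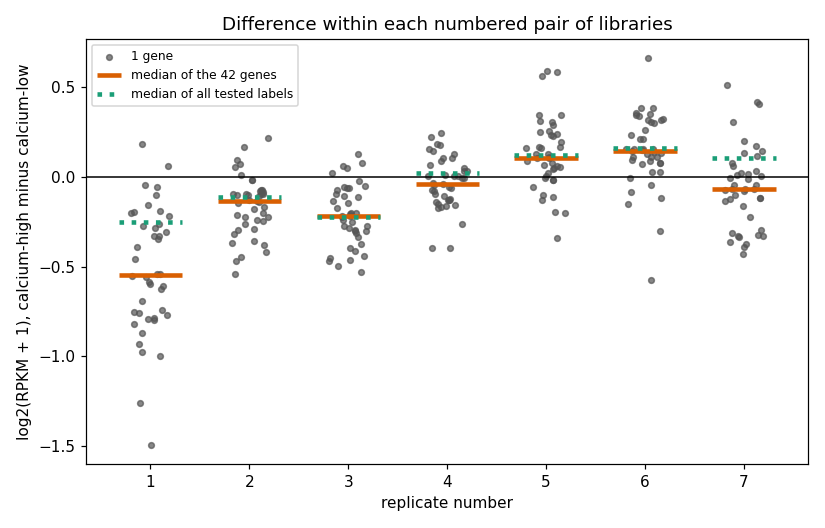
Difference in log2(RPKM + 1), calcium-high minus calcium-low, within each of the 7 numbered pairs of libraries (horizontal axis); each point is 1 of the 42 genes, solid lines are their medians and dotted lines the medians of all tested labels. The points lie mostly under 0 in pairs 1 to 3 and mostly above 0 in pairs 5 and 6, and the median of the 42 genes stands clearly under that of all labels in pairs 1 and 7.

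With the deposited scaling, the 2 sets of libraries differed in sign. In replicates 1 to 3 alone, 42 of 42 genes had a log2 fold change under 0, as had 83.2% of all labels, with a median of -0.29 against -0.20. In replicates 4 to 7 alone, 10 of 42 did, against 26.2% of all labels, with a median of 0.045 against 0.11. With median-of-ratios scaling the sets came closer. There, 29 of 42 genes were under 0 in replicates 1 to 3 (53.1% of all labels), with a median of -0.088 against -0.015, and 35 of 42 in replicates 4 to 7 (56.2% of all labels), with a median of -0.099 against -0.024. In a fit with a term for the difference between the sets, 14 of the 42 genes had an unadjusted p under 0.05, against 37.5% of all labels. After adjustment 0 of the 42 passed, against 1.66% of all labels (limma on the deposited scaling).

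Replicate number accounted for more of the variation in these genes than calcium did. It held a median of 65.3% of the sum of squares of the 42 genes on the log2(RPKM + 1) scale, and the calcium group held 2.82%. Over all tested labels the medians were 64.2% and 3.92%. For each of the 42 genes the share of the number was larger than that of the group. The number has more degrees of freedom than the group, so the shares are descriptions of these libraries.

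Between the library sets, the genes differed in both directions. The ratio of the mean RPKM in replicates 1 to 3 to that in replicates 4 to 7 ran from 0.571 for Rrp9 to 2.004 for Dkc1, with a median of 0.998, against 0.994 over all labels. All 6 libraries of replicates 1 to 3 were above all 8 libraries of replicates 4 to 7 in 3 genes (7.14%), Dkc1, Npm1 and Wdr75, against 10.5% of all labels. All 6 were below all 8 in 4 genes (9.52%), Rrp9, Rrp12, Nol6 and Nat10, against 6.55% of all labels. The sets overlapped in the other 35. Dkc1 ran from 7.63 to 16.8 RPKM in replicates 1 to 3, with a median of 10.7, and from 4.44 to 6.32 RPKM in replicates 4 to 7, with a median of 5.66. Npm1 ran from 32.8 to 64.4 RPKM, with a median of 43.3, and from 18.5 to 28.8 RPKM, with a median of 23.4. Rrp9 went the other way, from 3.54 to 6.36 RPKM, with a median of 4.55, against 6.53 to 10.2 RPKM, with a median of 8.08. Dkc1, Npm1 and Rrp9 were picked for this separation, so it is not a result about them. Their calcium groups overlapped, as in all 42 genes, and 0.141% of all labels had calcium groups that did not. The sets also differ in depth, and the part of depth in these ratios was not tested.

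**Figure D4:**
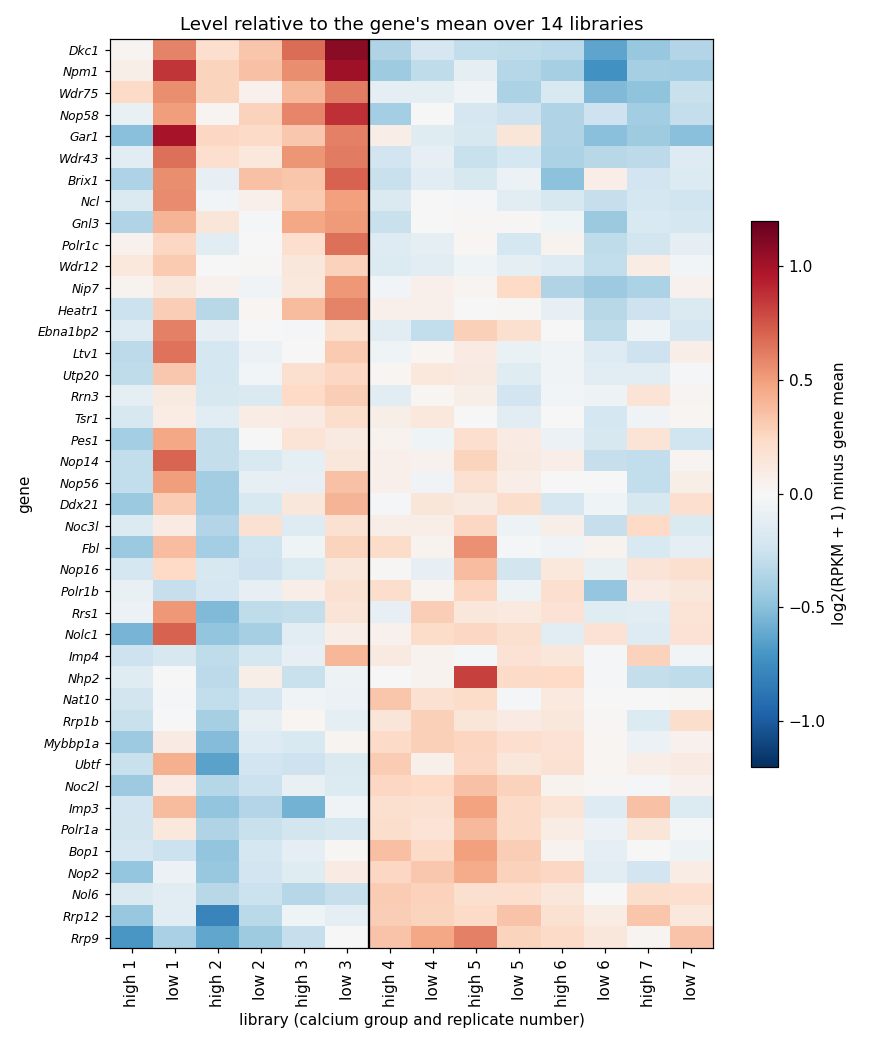
Level of each of the 42 genes (rows, ordered by the contrast between library sets) in each of the 14 libraries (columns, paired by number), as log2(RPKM + 1) minus the gene's mean over the libraries. Dkc1, Npm1 and Wdr75 at the top are high (red) in replicates 1 to 3 and low (blue) in replicates 4 to 7, Rrp9, Rrp12 and Nol6 at the bottom show the reverse, and calcium-low replicates 1 and 3 are high in most upper rows.

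Replicate 3, whose calcium-low library carried the neutrophil and cycling transcripts described above, was also high in some of these genes. Both of its libraries were above all 12 others in 5 of the 42 genes (11.9%), against 5.40% of all labels. For Dkc1 they held 12.4 (calcium-high) and 16.8 RPKM (calcium-low), and the other libraries 4.44 to 11.7 RPKM. The summed level of the 42 genes was 439 RPKM in calcium-high replicate 3 and 525 RPKM in calcium-low replicate 3. Over all libraries the sum ranged from 340 to 482 RPKM for calcium-high, with a median of 406, and from 369 to 530 RPKM for calcium-low, with a median of 428. The highest sum was that of calcium-low replicate 1 and the lowest that of its partner, calcium-high replicate 1, and the groups overlapped over most of their range.

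Vertebrate snoRNAs are mostly cut out of introns of host genes, and several of the 42 genes are such hosts. In the GENCODE annotation of GRCm38, 7 of the 42 genes (16.7%) held at least 1 snoRNA gene on the same strand, against 171 of 8862 tested protein-coding genes (1.93%). They are Nop56 with 5, Nop58 with 4, Ncl, Wdr43 and Gnl3 with 3 each, Tsr1 with 2 and Dkc1 with 1, in all 21 snoRNA genes. The 7 host genes had log2 fold changes of -0.25 to -0.056 with a median of -0.15, and 7 of 7 were under 0, against 57.8% of all labels. In replicates 4 to 7 alone they were above 0 for Dkc1 (0.013), Ncl (0.014), Gnl3 (0.039) and Tsr1 (0.054). There they were under 0 for Nop58 (-0.15), Wdr43 (-0.098) and Nop56 (-0.039). Of the 35 other genes 27 were under 0, with a median of -0.074. These are descriptions, and none of the 7 passed the test. RPKM per gene model does not measure the mature snoRNAs.

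Promoters of ribosome biogenesis genes are known for the E-box CACGTG, the site of Myc and related factors. RefSeq windows of 300 bases, from 250 before to 50 after the start site on GRCm38.p6, were matched by symbol for 36 of the 42 genes. Rrs1, Fbl, Nol6, Npm1, Rrp12 and Bop1 had none in the table. The letters CACGTG, which read the same on both strands, were found in windows of 9 of the 36 genes (25.0%), against 12.6% of 7177 tested labels and 8.09% of 27025 genes with a window. The ETS core, CGGAAG or CTTCCG, was found in 23 of the 36 (63.9%), against 39.2% and 18.8%. Neither motif contains the other. Stretches of Nop2 and Rrn3 (100 bases) and Imp4 (140 bases) before the RefSeq start site follow.
Nop2 (chr6:125131783-125131882, plus strand): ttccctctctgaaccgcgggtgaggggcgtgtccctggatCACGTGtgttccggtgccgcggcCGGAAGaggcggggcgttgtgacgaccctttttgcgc
Rrn3 (chr16:13780599-13780698, plus strand): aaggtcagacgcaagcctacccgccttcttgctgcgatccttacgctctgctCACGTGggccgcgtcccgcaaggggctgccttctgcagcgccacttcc
Imp4 (chr1:34439689-34439828, plus strand): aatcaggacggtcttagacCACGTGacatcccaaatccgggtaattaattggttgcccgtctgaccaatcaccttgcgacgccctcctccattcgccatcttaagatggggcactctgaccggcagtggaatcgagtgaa
Capitals mark the E-box in each of these and, in Nop2, also the ETS core. They are shown because in Nop2, Rrn3 and Imp4 the E-box lies before the start site, at 60, 48 and 121 bases before it. Rrn3 holds another copy outside the stretch shown, 215 bases before the start. In Ltv1, Utp20, Pes1, Mybbp1a, Tsr1 and Wdr43 the E-box lies after the start site. The 9 genes with an E-box had a median log2 fold change of -0.099, and the 27 genes with a window without it had one of -0.097.

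Other genes of the pathway were read from 5 further lists of 137 symbols, which hold some genes under both an older and a newer name, and 120 were tested. On the calcium-low side lay 94 of the 120 (78.3%, against 57.8% of all labels), with a median of -0.077. In limma with the block, 0 passed as higher and 1 as lower, against 0.484% and 0.433% of all labels. Without the block 0 passed, against 0% of all labels. The 1 call was Pno1, a factor that accompanies the maturing small subunit. Pno1 ran from 2.18 to 3.90 RPKM in calcium-high libraries and from 3.21 to 5.28 RPKM in calcium-low libraries, and the groups overlapped through calcium-high replicate 3. The means were 2.57 ± 0.609 and 3.90 ± 0.761 RPKM (SD, n = 7), with calcium-high lower in 7 of 7 pairs, as in 3.02% of all labels. This gave a log2 fold change of -0.46 (SE 0.0862), with a limma adjusted p of 0.0364 with the block and 0.240 without it. It was 0.0438 with median-of-ratios scaling and 0.0209 by limma-voom. The call was lost with upper-quartile scaling (limma adjusted p = 0.0606), a pseudocount of 5 (0.0516), no filter on low values (0.126) and median-of-ratios scaling without the block (0.279). Replicates 1 to 3 alone gave no call (limma adjusted p = 0.181, and 0.642 with median-of-ratios scaling). Replicates 4 to 7 alone gave one (0.0148 and 0.00699), as did limma with library weights (0.00233) and limma-voom without the block (0.00145). Leaving out each replicate number in turn gave adjusted p of 0.0182 to 0.167, with a call in 1 of 7 fits, the 1 without replicate 3.

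By list, the median log2 fold change was -0.015 for 15 other genes of RNA polymerase I transcription, -0.088 for 11 other snoRNP genes, -0.074 for 38 other small subunit genes, -0.096 for 43 other large subunit genes and -0.054 for 13 genes of the RNA exosome and of rRNA trimming. Apart from Pno1 the smallest p in each list belonged to a gene that did not pass. Taf1d, of the factor that selects the rRNA promoter, was at 4.96 ± 0.446 and 6.69 ± 2.07 RPKM (SD, n = 7; limma adjusted p = 0.212 with the block). Nufip1, which helps assemble box C/D snoRNPs, was at 1.39 ± 0.183 and 1.77 ± 0.274 RPKM (limma adjusted p = 0.348 with the block). Nmd3, the adaptor that exports the large subunit from the nucleus, was at 5.29 ± 1.91 and 6.90 ± 2.63 RPKM (limma adjusted p = 0.134 with the block). Xrn2, an exonuclease that trims rRNA, was at 5.60 ± 1.22 and 6.68 ± 1.47 RPKM (limma adjusted p = 0.249 with the block). Nmd3 and Xrn2 were lower in calcium-high in 7 of 7 pairs, as were 3.02% of all labels, and Taf1d and Nufip1 in 6 of 7. These genes were picked by the smallest p in the fit with the block, which favours regular pairs, so the pair counts are descriptions.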

How the data were processed

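RNA of 7 calcium-high and 7 calcium-low HSC libraries was sequenced. The values are RPKM as deposited by the authors, 1 table per library. The header names no unit, which was read from the values. The submitters' processing notes name edgeR and the builds GRCm38 and mm10 for the authors' work, with no role or version. The aligner, counter, annotation and use of strand are not given in the sources used here. Each table had 48737 labels, of which 23 in replicates 4 to 7 had become serial numbers and were left out. Of 48714 joined labels, 18207 were above 0 in any library.

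Labels with a mean of at least 1 RPKM (9921) were fitted with limma 3.58.1 (R 4.3.3, mean-variance trend) on log2(RPKM + 1), with Benjamini-Hochberg adjustment over all of them and a threshold of 0.05. Comparison by replicate number was set for these genes, so the fit with the number as a block is the main one, and the fit without it is given beside it. Libraries of the same number were checked for pairing. The deviations of their labels from the group means correlated at 0.384 to 0.715 in all 7 pairs. Only 5 of 14 libraries correlated best with their own number, and within the library sets the correlations were -0.065 to 0.552. The pairing was therefore taken from the replicate number, which the labels do not explain, and these values do not establish it. Whole reads could be recovered for 9921 of 9921 tested labels from the steps of the deposited RPKM (within 0.02 reads, against 0 of 500 labels with jittered values), and were used for limma-voom only. The jittered values were searched over fewer candidate steps than the deposited ones, so that check is not like for like. Read numbers are of these recovered reads, 3.48 to 10.1 M per library, and cover listed labels only.

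Each role class was described by its called genes, the 3 smallest p and the 2 highest levels, the other lists by called genes and the smallest p, and the marker lists by their most abundant gene, except that 1 HSC marker is not reported here and Kit and Hlf are given in its place. The genes and lists were chosen with earlier results of these data known. Scripts were tested on simulated data. Positions are those of GENCODE M21 (GRCm38), and promoter windows those of RefSeq (GRCm38.p6). Alternatives were other scalings, pseudocounts, filters, models and subsets of libraries. Chosen after seeing the data were median-of-ratios scaling or limma-voom together with no block, and median-of-ratios scaling within each library set. Further software was scipy 1.17.1, pandas 2.3.3 and numpy 2.4.6 under Python 3.11.15, with matplotlib 3.10.9 for figures.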

Additional observations from a re-analysis of the deposited data

Results flagged for a closer look

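In 86 groups of 7 libraries, the highest and lowest log2(RPKM + 1) of each of the 42 genes, and of their mean, were compared with their neighbours. In 3 groups a library stood apart by more than 0.568 of the group's range, and chance alone flags about 1 in 20 groups, which is 4.3 here. Calcium-high replicate 3 held 19.996 RPKM of Ncl, against 13.6 to 15.7 RPKM in the rest of its group. Calcium-low replicate 1 held 6.86 RPKM of Nop14, against 3.01 to 4.33 RPKM in the rest of its group. Calcium-high replicate 5 held 4.09 RPKM of Ebna1bp2, against 2.75 to 3.15 RPKM in the rest of its group.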

How the results depend on the processing

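Under 36 alternatives, 0 of the 42 genes were called higher, and 0 were called lower except in the 3 fits named next. These were limma-voom with library weights with and without the replicate block and median-of-ratios scaling in replicates 4 to 7 alone, and each called 1 gene, Ddx21. In limma without library weights, dropping the replicate block leaves every fold change as it is in this balanced design (34 of 42 under 0, against 57.8% of all labels). Only calls can differ there, and 0 of the 42 were called. With limma-voom and library weights the fold changes moved, with 26 of 42 under 0 with the block and 27 without it. Of all labels, 43.9% and 41.4% were under 0 in those fits. The count under 0 moved furthest in replicates 4 to 7 alone, to 10, where 26.2% of all labels were under 0. Over all labels, calls changed far more, from 48 higher and 43 lower to 0 and 0 without the block, 202 and 126 with median-of-ratios scaling and 578 and 277 by limma-voom. Without replicate 3 they were 164 and 138.

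For the 18 genes named by rule, 605 of 644 alternative fold changes kept their sign and their side of the threshold, 36 reversed and 3 passed it. The cause of the reversals was not tested. In replicates 4 to 7 alone the log2 fold changes were 0.15 for Fbl, 0.037 for Heatr1, 0.27 for Imp3, 0.085 for Imp4, 0.0078 for Mybbp1a, 0.014 for Ncl, 0.0073 for Noc2l and 0.11 for Npm1, and in replicates 1 to 3 alone -0.0065 for Polr1b. With library weights they were 0.034 for Fbl, 0.072 for Imp3 and 0.0202 for Imp4, and with upper-quartile scaling 0.0242 for Imp3 and 0.0046 for Imp4. By limma-voom Imp3 was at 0.085 with the block and 0.097 without it, and Imp4 at 0.0324 and 0.0327. With median-of-ratios scaling Imp3 was at 0.11 in replicates 4 to 7, and Nip7 at 0.056 and Noc2l at 0.0445 in replicates 1 to 3. Leaving out replicates or single libraries gave -0.21 to 0.0198 for Fbl, -0.11 to 0.072 for Imp3, -0.10 to 0.0313 for Imp4, -0.14 to 0.0045 for Noc2l and -0.26 to 0.033 for Npm1. The other 13 kept their sign, with -0.46 to -0.28 for Brix1, -0.35 to -0.22 for Ddx21, -0.21 to -0.051 for Heatr1, -0.29 to -0.095 for Ltv1, -0.21 to -0.083 for Mybbp1a, -0.20 to -0.036 for Ncl, -0.24 to -0.076 for Nip7, -0.42 to -0.17 for Nolc1, -0.30 to -0.15 for Nop56, -0.36 to -0.12 for Nop58, 0.072 to 0.20 for Polr1b, -0.32 to -0.16 for Rrs1 and -0.28 to -0.069 for Wdr43.

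Depth did not leave any of the 42 genes uncounted, with at least 54 reads in every library. Values are of 100 cells per library, and the intervals rest on 7 libraries per group. Summing label copies gave no other value, since each gene had 1 label above 0 in any library, and a filter of 5 RPKM tested 33 of the 42.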
